A study of Mus musculus with 12 samples.

Results

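In the livers of 12 mice, 10 genes were followed that had been chosen by their measured level, each lower in every KO liver than in every Het liver: Kcnk10, Cyp2u1, Osbpl8, Mapk4, Plekhb1, Ltbp4, Sned1, Ccbe1, Pcdh12 and Adipor2. These 10 genes are part of a table of 57180 genes, of which 19350 passed the filter on low counts (5 reads or more, scaled to the median library, in 3 or more livers). All 10 passed, although Kcnk10 passed only through its Het livers. Because the ranking of KO below Het chose them, every difference between KO and Het is given for these 10 genes as a description, without a test. The working name of the group was genes lost in the KO livers, a name that held for Kcnk10 alone, since the other 9 kept between 9.03% and 54.9% of their mean Het level. They are therefore called here the genes lower in every KO liver.

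The 12 livers came from 3 females and 3 males of each genotype. Both genotypes lacked Csa (Csa-/-), and all pups had been injected at birth into the brain ventricles with AAV9-CSA, a viral vector that carries human CSA under the ubiquitous chicken beta-actin promoter. KO mice were the CX mice, taken at a humane endpoint of hunched posture and tremors, and Het mice were Csa-/- Xpa+/- littermates of matched age without signs of disease, so genotype and terminal illness cannot be told apart. In the study's methods the KO genotype is written Csa-/- Xpa+/+ whereas its results describe CX mice as Csa-/- Xpa-/-, and the labels give KO and Het alone, so these names are kept. Ages of single mice are not given in the sources used here.

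CSA (the product of Csa, listed as Ercc8) and XPA are proteins of nucleotide excision repair, the first needed where a lesion stalls RNA polymerase on a transcribed strand and the second in the shared later steps. The genes lower in every KO liver form no single pathway. They encode a potassium channel (Kcnk10), enzymes and carriers of lipids (Cyp2u1, Osbpl8), the liver-enriched adiponectin receptor (Adipor2), a kinase and a membrane adaptor (Mapk4, Plekhb1), secreted matrix proteins (Ltbp4, Sned1, Ccbe1) and an endothelial adhesion protein (Pcdh12).

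Between 30044781 and 43634046 estimated counts per liver were assigned to genes, and levels are given as counts per 1000000 (CPM) after TMM scaling, or as length-corrected transcripts per 1000000 (TPM) where genes are compared with each other. Xpa was 3.10 to 6.34 CPM in Het livers and 0.992 to 1.83 CPM in KO livers, without overlap. This order goes with the Xpa-/- of the study's results and not with the Xpa+/+ of its methods, though an RNA level alone gives no genotype. Ercc8, the gene of CSA, was at 7.44 ± 2.03 and 6.88 ± 0.749 CPM in Het females and males and at 29.3 ± 7.99 and 16.6 ± 2.94 CPM in KO females and males (SD, n = 3 each), and the part of vector reads in it was not tested. All 10 hepatocyte markers were detected in every liver. One library, KO_F_112, stood apart, with 214 CPM of the endothelial gene Vwf, against 6.35 to 49.2 CPM in the others.

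The letters before the start sites of the genes were compared as a description, since the genes share their fall by choice. The sequences shown are those of Kcnk10, with the widest gap between genotypes, of Osbpl8 and Adipor2, the most abundant of the genes searched, and of a start site of Ltbp4. From RefSeq (GRCm38.p6) 10 start sites of 6 of the genes (Sned1, Adipor2, Ltbp4, Plekhb1, Osbpl8 and Kcnk10) were used, and the 250 bases before each were searched on both strands for 14 motifs. Capitals mark the matches. The first sequence is chr12:98578214-98578463 and the next chr12:98575128-98575377 (both minus strand), followed by chr10:111164552-111164801 (plus strand), chr6:119388735-119388984 (minus strand) and chr7:27337613-27337862 (minus strand).
Kcnk10 distal start: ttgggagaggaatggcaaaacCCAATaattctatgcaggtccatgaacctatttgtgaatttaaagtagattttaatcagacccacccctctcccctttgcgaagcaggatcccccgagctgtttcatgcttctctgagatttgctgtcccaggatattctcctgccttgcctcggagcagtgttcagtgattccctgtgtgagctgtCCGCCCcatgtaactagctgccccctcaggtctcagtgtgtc
Kcnk10 proximal start: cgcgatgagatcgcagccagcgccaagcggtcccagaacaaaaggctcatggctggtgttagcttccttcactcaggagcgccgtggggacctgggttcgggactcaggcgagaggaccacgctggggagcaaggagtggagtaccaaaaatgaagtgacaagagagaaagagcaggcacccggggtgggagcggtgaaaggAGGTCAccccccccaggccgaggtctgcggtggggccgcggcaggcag
Osbpl8: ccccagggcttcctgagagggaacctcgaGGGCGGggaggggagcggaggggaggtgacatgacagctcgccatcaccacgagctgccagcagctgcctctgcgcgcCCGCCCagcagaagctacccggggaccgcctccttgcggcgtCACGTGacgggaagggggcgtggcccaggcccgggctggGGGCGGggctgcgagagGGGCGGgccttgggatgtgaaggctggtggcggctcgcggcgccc
Adipor2: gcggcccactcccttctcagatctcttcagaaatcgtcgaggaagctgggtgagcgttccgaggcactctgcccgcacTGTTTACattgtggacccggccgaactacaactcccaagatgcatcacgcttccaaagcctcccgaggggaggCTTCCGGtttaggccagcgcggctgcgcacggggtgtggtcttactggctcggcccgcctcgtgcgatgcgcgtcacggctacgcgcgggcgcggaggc
Ltbp4: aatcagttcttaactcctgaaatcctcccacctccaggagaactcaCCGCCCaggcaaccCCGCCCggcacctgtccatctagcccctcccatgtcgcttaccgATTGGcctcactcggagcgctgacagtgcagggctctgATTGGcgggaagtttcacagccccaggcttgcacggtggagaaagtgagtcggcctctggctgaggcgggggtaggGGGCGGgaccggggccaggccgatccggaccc

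The letters of the GC box (GGGCGG) were found in 6 of the 10 start regions, against 32.7% of all 32851 RefSeq promoters, and those of the CCAAT box (CCAAT) in 4 of 10, against 33.8%. By gene these were 4 and 3 of the 6 genes, since 3 of the windows with a GC box belong to Ltbp4, and 2 of those share 235 of their 250 bases. The E-box CACGTG occurred before Osbpl8 only (6.02% of all promoters), and the nuclear receptor letters AGGTCA before the proximal start of Kcnk10 only (14.02%). Upstream of Adipor2 stood the FOXA letters TGTTTAC (3.17% of all promoters) and the ETS letters CCGGAAG (6.91%). No motif of the 14 was found at all 6 genes, and no TATA box (TATAAA) was found in these windows. Median GC content was 64.2% over the 10 windows and 52.4% over all promoters. The matches describe letters in these windows and were not tested for binding.

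Kcnk10 encodes TREK-2, a two-pore potassium channel that carries background current and opens with membrane stretch and polyunsaturated fatty acids. It stood at 4.09, 1.61 and 4.51 CPM in Het females and at 3.704, 3.45 and 2.05 CPM in Het males. KO females had 0, 0.0310 and 0.107 CPM, and KO males 0.0226, 0.0291 and 0 CPM. In counts, the 6 KO livers held 0, 1, 4, 1, 1 and 0 reads, whereas no Het liver held fewer than 63. Summed over the group, Het females had 417 counts and KO females 5, a ratio of 70.2 per scaled library with an exact 95% interval of 29.9 to 217. Het males had 281 counts and KO males 2, a ratio of 173 with an interval of 47.3 to 1431. These intervals cover counting error only. The fitted log2 difference of -5.23 (SE 0.41) depends on the prior count of the fit and is no measure of how far the gene fell. The gap between the lowest Het liver and the highest KO liver was 14.99-fold, the widest among the 10 genes, and 2 other tested genes had a wider one.

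Every KO liver lay below every Het liver for 4.64% of all tested genes (897 genes), and every KO liver above every Het liver for 4.72%, so the ordering that defines these 10 genes was shared by many others. Over both sexes 9.80% of tested genes were called lower in KO and 11.8% higher, in females 4.50% and 5.15%, and in males 2.80% and 4.11%. With library size as the only scaling, 37.7% rather than 53.3% of the calls in females were higher in KO. Among the 10 genes, Adipor2 had the narrowest gap, with its lowest Het liver 1.30-fold above its highest KO liver, followed by Sned1 at 1.32-fold. Just outside the rule stood Stmp1, whose highest KO liver had 27.13 CPM and lowest Het liver 27.12 CPM. The ordering held for all 10 genes in TPM as well, where 3.89% of tested genes met it. TPM comes from the same libraries and the choice of the genes covered it, so this is no separate check.

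**Figure D1:**
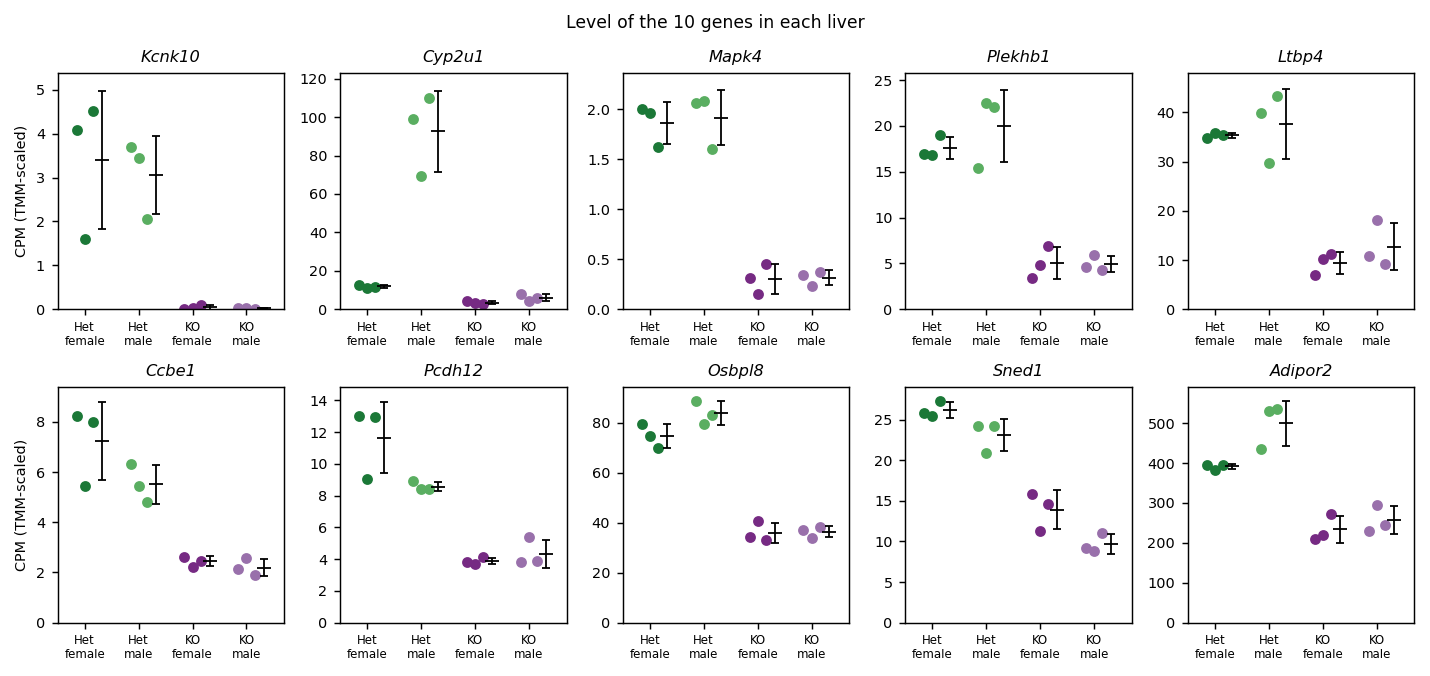
Level of each of the 10 genes in CPM (vertical axis, from 0) in each of the 12 livers, by group; points are single livers, the dash and bar beside them the mean and SD of 3 livers. No KO liver reaches a Het liver in any panel, and Cyp2u1 in Het males, at 69.2 to 110.0 CPM, stands far above Het females, at 11.3 to 12.9 CPM.

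Cyp2u1 encodes a cytochrome P450 that hydroxylates long-chain fatty acids such as arachidonic acid. Het females had 12.9, 11.3 and 11.8 CPM, and Het males 98.8, 69.2 and 110.0 CPM. In KO livers it was 4.52, 3.00 and 2.79 CPM in females and 7.74, 4.40 and 5.89 CPM in males. Males and females did not overlap among Het livers, but in KO livers the lowest male fell just below the highest female. KO females kept 28.7% of the Het female mean, and KO males 6.49% of the Het male mean. The log2 difference between KO and Het was -1.79 (SE 0.24) in females and -3.93 (SE 0.26) in males.

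The difference between the sexes among Het livers was not used to choose the genes and could be tested. The rule kept every KO liver below the lowest Het liver, for Cyp2u1 a female at 11.3 CPM. It thereby limited the level that KO males could have. The sex difference among KO livers and the interaction are therefore given as descriptions, since the choice of the genes bears on both. Among Het livers Cyp2u1 was 7.70-fold higher in males (log2 difference 2.95, SE 0.25, edgeR quasi-likelihood test, adjusted p = 1.03e-04), in a comparison that called 0.811% of tested genes. Of the 74 genes called higher in Het males, it had the sixth smallest p and the thirty-sixth largest difference. Among KO livers the males were 1.74-fold above the females (log2 difference 0.80, SE 0.24, edgeR adjusted p = 0.274), which did not pass in a comparison that called 0.0568%. The interaction, the male log2 difference less the female one, was -2.14 (SE 0.34) with an edgeR adjusted p of 0.0506, so it stood just outside the threshold, in a comparison that called 0.0465% of tested genes. Across 23 other settings and left-out mice this value ranged from -2.37 to -1.89 and was called in 9, with adjusted p from 6.33e-06 to 0.174.

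The other 9 genes were not called between males and females in either genotype, nor for the interaction. At an unadjusted p under 0.05, which 10.7% of tested genes reached among Het livers, Pcdh12 was lower in Het males (log2 difference -0.44, SE 0.18, edgeR adjusted p = 0.411) and Adipor2 higher (0.35, SE 0.15, edgeR adjusted p = 0.436). Sned1 was the only one of the 9 to reach that level among KO livers, where 12.0% of tested genes did, with males below females by 0.52 on the log2 scale (SE 0.15, edgeR adjusted p = 0.256). Pcdh12 had an interaction of 0.60 (SE 0.26, edgeR adjusted p = 0.537), where 8.93% of tested genes reached an unadjusted p under 0.05. For these 9 genes too, the values among KO livers and the interactions are descriptions, since the choice of the genes bears on both. With 3 mice in each group, a difference that missed the threshold was not shown to be absent.

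**Figure D2:**
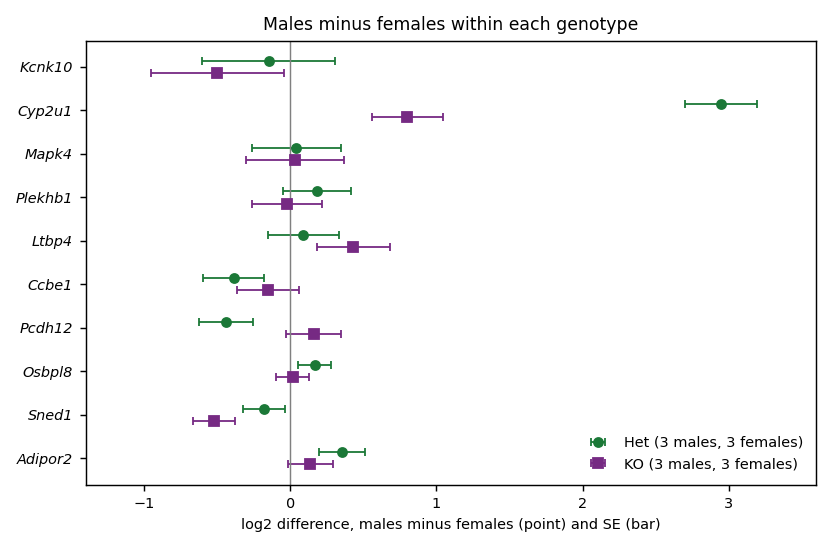
Log2 difference of males minus females (horizontal axis, point) with its SE (bar) for each of the 10 genes, in Het livers (circles) and in KO livers (squares), 3 males and 3 females each. Only Cyp2u1 in Het livers, at 2.95, passed the test, and its KO value is 0.80.

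Long-chain fatty acid hydroxylases, the enzymes closest to Cyp2u1 in function, were measured for 19 of the 21 listed genes. Over both sexes 6 were lower in KO, 2 higher and 11 not called, where 9.80% of all tested genes were called lower and 11.8% higher, and the list's median log2 difference was -0.21 against 0.02 over all tested genes. Cyp4f16 rose from 1.77 ± 0.699 to 7.97 ± 0.745 CPM (SD, n = 6 each, log2 difference 2.21, edgeR adjusted p = 1.37e-05). Cyp4a32 fell from 16.4 ± 4.39 to 7.10 ± 2.38 CPM (log2 difference -1.22, edgeR adjusted p = 7.62e-04, n = 6 each). Cyp4v3 fell from 325 ± 115.1 to 166 ± 28.0 CPM (-0.92, edgeR adjusted p = 7.84e-04, n = 6 each). Members of the list thus moved in both directions. Among the two-pore potassium channels, relatives of Kcnk10, 7 of 13 were measured, of which Kcnk13 rose (1.14 on the log2 scale, SE 0.29, edgeR adjusted p = 0.0174) and none was lower. Kcnk2, which encodes the closest relative TREK-1, was at 0.0864 ± 0.0622 CPM in Het and 0.0963 ± 0.0554 CPM in KO livers (SD, n = 6 each), too low to compare.

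Osbpl8 encodes ORP8, which bridges the endoplasmic reticulum and the plasma membrane and exchanges phosphatidylserine for phosphatidylinositol 4-phosphate. Het females had 79.3, 74.6 and 70.0 CPM and Het males 88.8, 79.6 and 83 CPM. KO females had 34.2, 40.5 and 33.1 CPM and KO males 37.2, 33.7 and 38.1 CPM. Among the 10 genes it varied least within KO livers, with a coefficient of variation of 8.08%. KO livers kept 45.6% of the Het mean, and the log2 difference was -1.05 (SE 0.12) in females and -1.20 (SE 0.12) in males. Of the 10 measured genes of its own family, Osbpl7 was higher in KO (0.71 on the log2 scale, SE 0.15, edgeR adjusted p = 0.0078), none was lower, and Osbpl5, its closest relative, had a log2 difference of -0.60 (SE 0.25, edgeR adjusted p = 0.104). By sex the log2 difference of Osbpl5 was 0.08 in females and -1.27 in males, neither called by edgeR. Without KO_F_112 Osbpl5 was called lower over both sexes. The proteins of contact sites and phosphatidylserine handling were split, with 4 lower, 3 higher and 8 not called of 15. Of all tested genes 9.80% were called lower and 11.8% higher. Ttc7b, part of the complex that makes phosphatidylinositol 4-phosphate at the plasma membrane, was lower over both sexes (-0.62, SE 0.08, edgeR adjusted p = 5.25e-04). It was called lower in males (-1.05, edgeR adjusted p = 4.98e-04) but not in females (-0.19, edgeR adjusted p = 0.302). The sterol carrier gene Gramd1b (1.07, SE 0.17, edgeR adjusted p = 0.00181) and the tether Esyt1 (0.66, SE 0.11, edgeR adjusted p = 0.00185) were higher.

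Adipor2 encodes a receptor for the fat-cell hormone adiponectin, with ceramidase activity, and is the more liver-enriched of the paired receptors. Het females had 396, 384 and 396 CPM and Het males 435, 531 and 536 CPM. KO females had 209, 219 and 273 CPM and KO males 229, 296 and 245 CPM. It was the most abundant of the 10 genes and the one that kept most of its Het level, at 54.9%. The log2 difference was -0.75 (SE 0.15) in females and -0.96 (SE 0.16) in males. Adipor1, the gene of the other receptor, moved the opposite way and rose from 86.0 ± 6.59 to 108.2 ± 9.98 CPM (SD, n = 6 each, log2 difference 0.33, edgeR adjusted p = 0.0187).

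Around Adipor2, 24 of 26 listed genes of the receptor family and of adiponectin signalling were measured, of which 7 were lower, 2 higher and 15 not called. The shares over all tested genes were 9.80% lower and 11.8% higher. Appl1, the adaptor that binds both receptors, was higher (0.84, SE 0.11, edgeR adjusted p = 5.87e-04). Paqr7, a membrane progestin receptor of the same family, was lower (-1.46, SE 0.22, edgeR adjusted p = 0.00148). Ppara, the nuclear receptor of fatty acid oxidation, fell from 206 ± 41.1 to 80.6 ± 29.4 CPM (SD, n = 6 each, log2 difference -1.37, edgeR adjusted p = 0.0023). The median log2 difference over the list was -0.16.

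Mapk4 encodes ERK4, an atypical MAP kinase that partners with the kinase MK5. Het females had 2.0, 1.96 and 1.62 CPM and Het males 2.07, 2.08 and 1.60 CPM. KO females had 0.310, 0.155 and 0.456 CPM and KO males 0.340, 0.233 and 0.377 CPM, which is 5 to 17 reads per liver. The gap between genotypes was 3.51-fold, next to that of Kcnk10, and the log2 difference was alike in both sexes, at -2.39 (SE 0.33) in females and -2.40 (SE 0.33) in males. Mapk6, which encodes its closest relative ERK3, went the other way and rose by 0.55 on the log2 scale (SE 0.13, edgeR adjusted p = 0.0108). Of the 7 atypical MAP kinases and partners 2 were higher, with Pak1 (1.21, SE 0.27, edgeR adjusted p = 0.00861) beside Mapk6, and 1 was lower, Mapk15 (-1.79, SE 0.32, edgeR adjusted p = 0.0034). Among all tested genes 9.80% were called lower and 11.8% higher.

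Plekhb1 encodes evectin-1, a small membrane protein with a pleckstrin homology domain, best known from the retina and brain. Het females had 16.9, 16.8 and 19.0 CPM and Het males 15.4, 22.5 and 22.0 CPM. KO females had 3.38, 4.80 and 6.86 CPM and KO males 4.64, 5.95 and 4.24 CPM, so the highest KO liver had less than the lowest Het liver by a factor of 2.25. KO livers kept 26.5% of the Het mean. Its only paralog, Plekhb2, was at 15.7 ± 1.01 CPM in Het and 15.7 ± 1.46 CPM in KO livers (SD, n = 6 each, log2 difference 0.01, SE 0.09, edgeR adjusted p = 0.955).

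**Figure D3:**
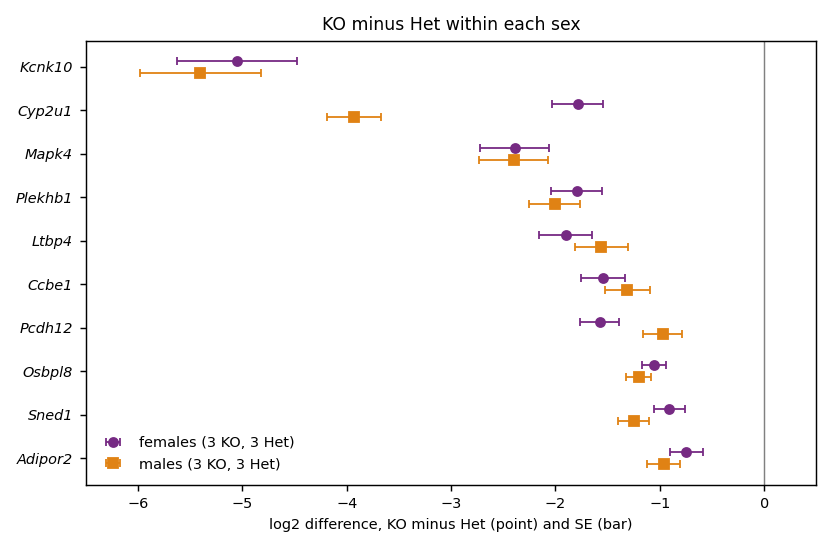
Log2 difference of KO minus Het (horizontal axis, point) with its SE (bar) for each of the 10 genes within females (circles) and within males (squares), 3 KO and 3 Het livers each. The points are negative by the choice of the genes; those of Mapk4 nearly coincide at -2.39 and -2.40, and those of Cyp2u1 lie apart at -1.79 and -3.93.

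Ltbp4 encodes a latent TGF-beta binding protein that also guides elastic fibre assembly. Het females had 34.8, 35.8 and 35.4 CPM, the tightest group among the matrix genes, and Het males 39.8, 29.6 and 43.3 CPM. KO females had 6.94, 10.1 and 11.2 CPM and KO males 10.7, 18.2 and 9.23 CPM. The male liver KO_M_122 was the highest of the KO livers. The log2 difference was -1.90 (SE 0.25) in females and -1.56 (SE 0.25) in males, and the male value became -1.91 without KO_M_122.

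Sned1 encodes a matrix glycoprotein with EGF and fibronectin repeats. Het females had 25.8, 25.5 and 27.3 CPM and Het males 24.3, 20.9 and 24.2 CPM. KO females had 15.9, 11.3 and 14.6 CPM and KO males 9.22, 8.80 and 11.1 CPM. Each KO male lay below each KO female in CPM, but in TPM KO_M_122, at 1.82, was above KO_F_112, at 1.46. KO females kept 53.2% and KO males 41.9% of their Het means.

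Ccbe1 encodes a secreted protein that helps the protease ADAMTS3 activate VEGF-C and is required for lymphatic vessels to form. Het females had 8.26, 5.46 and 8.01 CPM and Het males 6.34, 5.43 and 4.80 CPM. KO females had 2.63, 2.23 and 2.47 CPM and KO males 2.13, 2.56 and 1.89 CPM. The 6 KO livers were close together (coefficient of variation 12.4%) while the Het livers spread more (22.6%). The log2 difference was -1.55 (SE 0.21) in females and -1.31 (SE 0.21) in males. Its effective length, the ratio of count to TPM on a relative scale, was 1.22 times longer in KO than in Het, so its TPM fell further than its CPM, whereas the ratio was 0.948 to 1.08 for the other genes apart from Kcnk10, at 0.703 over few reads.

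Pcdh12 encodes a protocadherin of endothelial cell junctions. Het females had 13.0, 9.06 and 12.9 CPM and Het males 8.91, 8.39 and 8.41 CPM. KO females had 3.84, 3.68 and 4.10 CPM and KO males 3.80, 5.36 and 3.86 CPM. The log2 difference was -1.57 (SE 0.19) in females and -0.97 (SE 0.19) in males. KO_M_122 again gave the highest KO value, and without it the male difference was -1.15.

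Genes of related matrix and vessel lists are described next, to be read against the 9.80% of all tested genes called lower and the 11.8% called higher. Among 27 measured genes of the latent TGF-beta complex, microfibrils and elastic fibres, 4 were lower, 2 higher and 21 not called, counts close to those shares. Tgfbr2, a TGF-beta receptor, rose from 27.1 ± 6.29 to 62.3 ± 16.2 CPM (SD, n = 6 each, log2 difference 1.20, edgeR adjusted p = 6.85e-04). Fbln1 (-1.56, SE 0.33, edgeR adjusted p = 0.00724) and the co-receptor Tgfbr3 (-0.71, SE 0.15, edgeR adjusted p = 0.00765) were lower. Ltbp1, a relative of Ltbp4, had a log2 difference of -0.63 (SE 0.27, edgeR adjusted p = 0.11) and was called lower without KO_F_112, when 4 genes of the list were lower, 3 of them the same, and 1 was higher.

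Of 24 basement membrane and EGF-repeat glycoproteins, 7 were lower, 4 higher and 13 not called, with a median log2 difference of -0.42. The endothelial laminin chain Lama4 (-1.28, SE 0.16, edgeR adjusted p = 5.14e-04) and Sparcl1 (-1.35, SE 0.18, edgeR adjusted p = 6.66e-04) were lower, and the laminin chain Lama5 was higher (0.78, SE 0.12, edgeR adjusted p = 0.00154). In the VEGF-C and lymphatic list, 7 of 20 were lower, 2 higher and 11 not called. The lower genes included the adrenomedullin receptor Calcrl (-1.31, SE 0.11, edgeR adjusted p = 4.33e-05), the co-receptor Nrp2 (-1.42, SE 0.17, edgeR adjusted p = 3.38e-04) and the VEGF receptor Kdr (-0.99, SE 0.18, edgeR adjusted p = 0.00369). Kdr was called lower in females (-1.36, edgeR adjusted p = 0.0119) but not in males (-0.61, edgeR adjusted p = 0.172). Vegfc itself had a log2 difference of -0.48 (SE 0.19, edgeR adjusted p = 0.0867). Without KO_F_112 the list had 4 lower and 0 higher genes, and these 4 were among the 7.

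Of 18 measured cadherins and protocadherins 5 were lower, 3 higher and 10 not called. The brush border protocadherin Cdhr2 rose from 0.0870 ± 0.0696 to 3.69 ± 0.825 CPM (SD, n = 6 each, edgeR adjusted p = 1.26e-05). Cdh2, the N-cadherin of hepatocytes, fell from 121 ± 9.17 to 73.0 ± 11.1 CPM (SD, n = 6 each, log2 difference -0.74, edgeR adjusted p = 4.37e-04). Cdh13, which binds adiponectin on vessels, was lower as well (-1.17, SE 0.20, edgeR adjusted p = 0.00223).

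**Figure D4:**
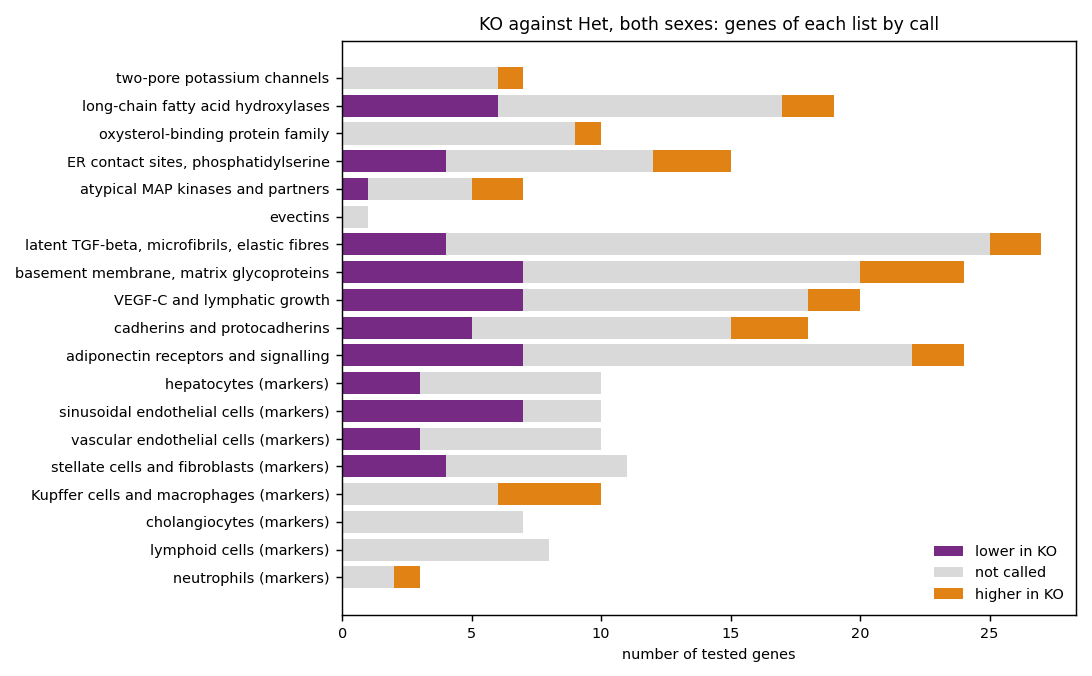
Number of tested genes (horizontal axis, from 0) in each of the 11 companion lists and 8 marker lists that were lower in KO, not called, or higher in KO over both sexes at an adjusted p under 0.05. Lower genes outnumber higher ones most in the sinusoidal endothelial markers, with 7 of 10 lower and 0 higher, and the Kupffer cell markers show 4 of 10 higher and 0 lower.

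Whole liver was measured, so fewer cells of a type and less RNA per cell cannot be told apart. Markers of the cells that hold matrix and vessel genes moved with the genotype. For all marker lists the shares over all tested genes were 9.80% lower and 11.8% higher over both sexes. In females 4.50% of all tested genes were called lower. Of 10 sinusoidal endothelial markers 7 were lower and 0 higher over both sexes, 4 were lower in females, and none was called by edgeR in males, where adjusted p ranged from 0.0666 to 0.897. Their summed level did not overlap in females (385 to 497 CPM in Het and 216 to 288 CPM in KO) but did in males (264 to 376 and 193 to 326 CPM). Of 11 stellate cell and fibroblast markers 4 were lower (Reln, Lrat, Ecm1 and Colec11) and 0 higher over both sexes, with sums of 333 to 627 CPM in Het and 180.0 to 368 CPM in KO livers. By sex, 6 were called lower in females and 3 in males, where 2.80% of all tested genes were. These sums did not overlap in females (510 to 627 CPM in Het and 195 to 250 CPM in KO) but did in males (333 to 478 and 180.0 to 368 CPM). Reln made up 169.6 of a mean of 485 CPM in Het and 50.4 of 242 CPM in KO livers. Vascular endothelial markers had 3 of 10 lower and 0 higher, with sums of 91.3 to 139 and 66.4 to 307 CPM, the highest of them KO_F_112. No marker of these 3 lists was at 0 in any liver.

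The other lists moved less or otherwise. Hepatocyte markers had 3 of 10 lower (Ttr, Serpina1c and Cyp2e1) and 0 higher (sums 63441 to 81300 CPM in Het and 76261 to 132960 CPM in KO livers). Most of that sum was Alb, with means of 48556 CPM in Het and 71834 CPM in KO livers, which was not called (edgeR adjusted p = 0.0547). Kupffer cell and macrophage markers had 4 of 10 higher and 0 lower (sums 150.0 to 404 and 210.1 to 643 CPM). None of 7 cholangiocyte or 8 lymphoid markers was called by edgeR, and 1 of 3 measured neutrophil markers was higher. The male liver KO_M_122 had the highest stellate and sinusoidal sums of the KO livers and also the highest Ltbp4, Pcdh12 and Adipor2. Its Sned1, at 8.80 CPM, was however the lowest of the KO livers. Its Ccbe1, at 2.56 CPM, lay below that of KO_F_108, at 2.63 CPM.

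Each of the 4 matrix and vessel genes was also divided by the summed marker level of its own liver, a step chosen after its values were seen. Because these genes were chosen on the same KO and Het values, the result is a description and supports nothing about them. Per 100 CPM of sinusoidal markers, Ltbp4 was 9.83 ± 1.94 CPM in Het and 4.53 ± 0.983 CPM in KO livers, and per 100 CPM of stellate markers 7.88 ± 2.03 and 4.54 ± 0.606 CPM (SD, n = 6 each), without overlap on either scale. After the same divisions, every KO liver lay below every Het liver for 0.372% of all tested genes on the sinusoidal scale and for 0.181% on the stellate scale, shares lowered by the division itself since the sums were smaller in KO livers. Ccbe1 and Pcdh12 did not overlap per sinusoidal marker level, where KO livers had 57.6% and 64.2% of Het, but overlapped per stellate marker level, at 74.0% and 82.5%. Sned1 overlapped on both scales, with KO at 76.7% of Het per sinusoidal and 99.7% per stellate marker level. The stellate values depended on Reln. Without it in the sum, KO livers had 81.5% of Het for Sned1, 60.6% for Ccbe1, 67.8% for Pcdh12 and 47.6% for Ltbp4, and Ltbp4 alone of the 4 did not overlap, as was the case for 0.284% of tested genes. Which cells expressed these genes was not measured, and the part of cell composition in their differences was not tested.

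**Figure D5:**
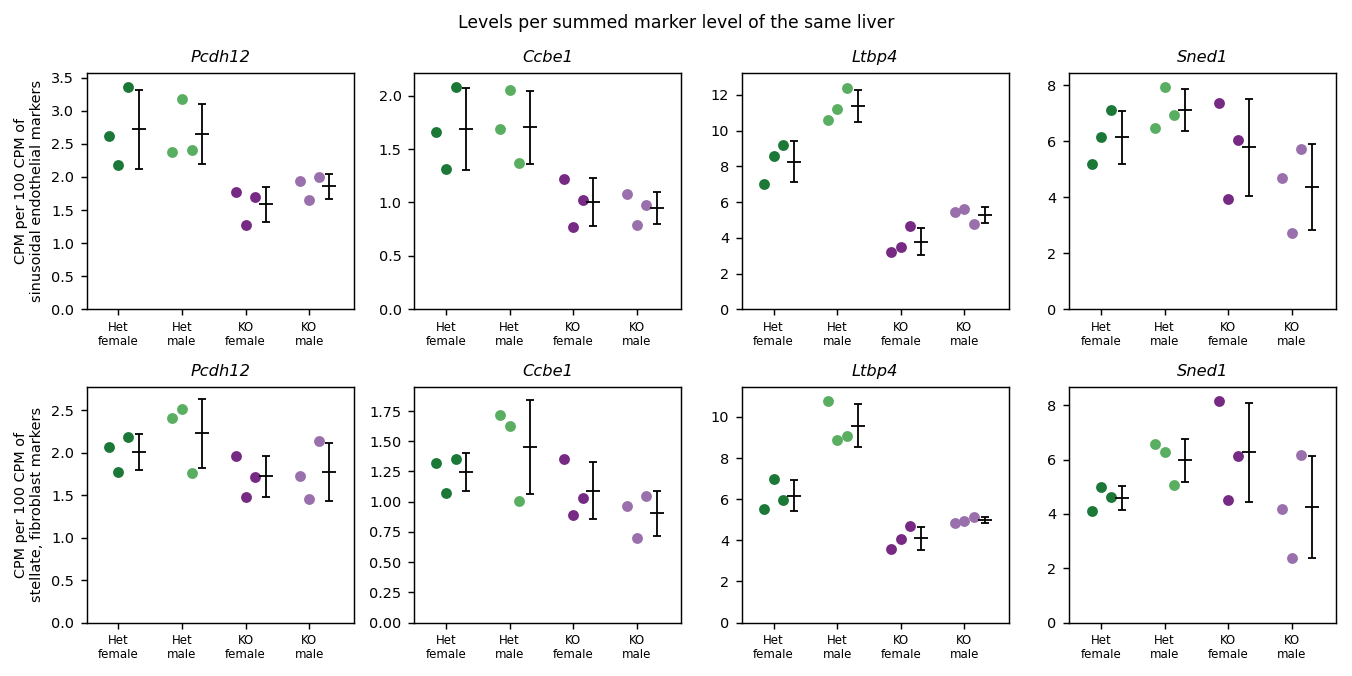
CPM of Pcdh12, Ccbe1, Ltbp4 and Sned1 per 100 CPM of summed sinusoidal endothelial markers (upper row) or stellate cell and fibroblast markers (lower row) of the same liver, by group; points are livers, the dash and bar the mean and SD of 3. All 6 KO livers stay below all Het livers for Ltbp4 in both rows, while Sned1 per stellate marker level, a sum that includes Reln, is 5.27 in Het and 5.25 in KO.

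Levels of different genes were compared in TPM. In Het females the order from highest to lowest was Adipor2 (78.2 ± 0.619 TPM), Osbpl8 (12.2 ± 0.590), Plekhb1 (8.66 ± 0.805), Ltbp4 (5.64 ± 0.0998), Sned1 (4.11 ± 0.649), Cyp2u1 (2.94 ± 0.190), Pcdh12 (1.86 ± 0.358), Ccbe1 (1.39 ± 0.188), Kcnk10 (0.942 ± 0.339) and Mapk4 (0.319 ± 0.0392; SD, n = 3 each). Of these neighbours only Pcdh12 and Ccbe1 overlapped. Het males kept this order except for Cyp2u1, which moved up to second place at 18.5 ± 4.23 TPM, above Osbpl8 at 11.5 ± 0.982 TPM, and there Plekhb1, Ltbp4 and Sned1 each overlapped the next or previous gene. In KO livers Adipor2 (44.6 ± 7.21 TPM in females, 47.4 ± 5.60 in males) and Osbpl8 (5.48 ± 0.149 and 5.50 ± 0.0778) still led. The middle of the order, from Plekhb1 to Cyp2u1, overlapped between neighbours in both sexes. Kcnk10 came last in KO livers, apart from Mapk4 in males and overlapping it in females, whereas in Het livers Mapk4 came last. The TPM scale of these libraries was shared with Rn7s1 and Rn7s2, 7SL RNA genes that took 48.9% to 55.2% of TPM in Het and 44.5% to 55.7% in KO livers.

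For each gene the most similar tested gene was sought by the root mean square difference between log2 CPM profiles over the 12 livers, each centred on its mean. This difference grows with the size of a gene's own variation, so it was also divided by the gene's own root mean square. Adipor2 was nearest to Ulk2, an autophagy kinase, at 0.15, and Sned1 to the protocadherin Pcdhga6 at 0.16. Ltbp4 and Plekhb1 had the same nearest gene, Islr, a fibroblast-expressed secreted protein, at 0.17 and 0.30. Pcdh12 was nearest to Rbms3 (0.17) and Ccbe1 to Calcrl (0.25), and within the 10 genes Ccbe1 and Pcdh12 were the most similar to each other at 0.16. Osbpl8 was nearest to the guanylate cyclase subunit Gucy1a2 (0.18) and Mapk4 to the low-level transcript Gm40893 (0.39). Cyp2u1 had Nat8f6 as nearest gene (0.56), followed by the oxysterol hydroxylase gene Cyp7b1 (0.61). Nat8f6 was low, with means of 0.385 CPM in Het and 0 CPM in KO livers, so its KO profile rests on the prior count. Kcnk10 was nearest to Inhbe, the gene of activin E, at 1.15. Relative to their own variation the distances lay between 0.178 for Ltbp4 and 0.430 for Kcnk10, with 0.319 for Adipor2 and 0.338 for Ccbe1. All profiles share the same 12 libraries and the fall in KO livers that chose the 10 genes.

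The 10 genes lie on 7 chromosomes, with 3 of them (Mapk4, Ccbe1 and Pcdh12) on chromosome 18, which holds 2.56% of tested genes, and none on chromosome 4 or 13, which carry Xpa and Ercc8. In GENCODE M39 on GRCm39 all 10 are protein coding. Kcnk10 spans chr12:98395696-98544569, Osbpl8 chr10:111000599-111133116, Cyp2u1 chr3:131082090-131096876, Plekhb1 chr7:100291919-100356877 and Ltbp4 chr7:27004086-27037117. Sned1 spans chr1:93163558-93228787, Adipor2 chr6:119330111-119394668, Mapk4 chr18:74061551-74198430, Ccbe1 chr18:66178373-66435812 and Pcdh12 chr18:38400142-38417455.

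Gene length ranged from 14.8 kb for Cyp2u1 to 257 kb for Ccbe1, with a median of 65.1 kb against 18.1 kb over the 19237 tested genes with a position. Of the 10 genes 4 (Kcnk10, Osbpl8, Mapk4 and Ccbe1) were at least 100 kb long, as were 11.2% of tested genes. Among all tested genes of that length 18.1% were called lower in KO, against 9.83% of all tested genes with a position. The part of length in the differences was not tested.

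Of 20 nearest tested neighbours, 1 on each side, 3 were lower, 5 higher and 12 not called, with a median log2 difference of 0.33. Over all tested genes 9.80% were called lower and 11.8% higher, with a median of 0.02. Hadh beside Cyp2u1 (-0.67, SE 0.21, edgeR adjusted p = 0.0408), Cxxc1 beside Mapk4 (-0.28, SE 0.08, edgeR adjusted p = 0.0256) and Gnpda1 beside Pcdh12 (-0.97, SE 0.19, edgeR adjusted p = 0.0049) were lower. Both neighbours of Adipor2 were higher. Cacna2d4 had a mean of 0.0221 CPM in Het and 1.49 CPM in KO livers (edgeR adjusted p = 7.92e-05), a Het level too low for a fold, and Wnt5b rose by 1.27 on the log2 scale (SE 0.27, edgeR adjusted p = 0.00736). Spata7 beside Kcnk10, Numbl beside Ltbp4 and Mab21l4 beside Sned1 were also higher. A further 10 tested genes overlapped the 10 genes, of which 4 were lower, 1 higher and 5 not called. The lower ones were Gm40893 and 5330409N07Rik at Kcnk10 (edgeR adjusted p = 0.0012 and 0.00526, the former at 0.248 CPM in Het and 0.00484 CPM in KO livers), Gm57006 at Osbpl8 (-1.15, edgeR adjusted p = 0.0034) and 4930534D22Rik at Cyp2u1 (-1.31, edgeR adjusted p = 0.0324). The higher one was Gm56986 at Adipor2 (0.108 CPM in Het and 0.302 CPM in KO livers, edgeR adjusted p = 0.0451). Of the lower ones, 5330409N07Rik and Gm57006 lie on the same strand as the gene they overlap. The counting could split reads between them, so their values are uncertain. Gm40893 and 4930534D22Rik lie on the opposite strand. Like 5330409N07Rik (0.205 CPM in Het and 0.00484 CPM in KO livers), both were low, with 4930534D22Rik at 0.204 and 0.0323 CPM. The differences of these low transcripts are uncertain as well.

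Within KO females KO_F_123 had the highest value for 6 of the 10 genes and the lowest for 2. Within KO males KO_M_122 had the highest value for 6 and the lowest for 4. How often these livers ranked highest or lowest over all tested genes was not counted. Het_F_115 had the lowest value of the Het females for 7 of the 10, Kcnk10 included.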

How the data were processed

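Total RNA of 12 livers (3 mice per sex and genotype) was depleted of ribosomal RNA and sequenced as stranded paired reads. The authors ran the nf-core RNA-seq pipeline, aligning with STAR 2.7.9a to GRCm39 and quantifying GENCODE M34 genes with Salmon 1.10.1. The authors deposited estimated counts per gene, 2 rescaled tables of estimated counts, and TPM, which sums to 1000000 per library and keeps no depth. Estimated counts were rounded (12.0% were not whole) for the main fit. Libraries held 30044781 to 43634046 counts. No column of other samples was used.

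Genes with at least 5 reads, scaled to the median library, in at least 3 livers were kept (19350), scaled by TMM and fitted in edgeR 4.0.16 (R 4.3.3) as 4 group means with the quasi-likelihood F test, robust estimation and a prior count of 2. Benjamini-Hochberg adjustment ran over all tested genes, and genes with an adjusted p under 0.05 were called. SE of a log2 difference was computed from the F statistic. The fit was tested on simulated data. Replicates are separate mice, and p-values measure the spread between them.

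The 10 genes and all lists were chosen with earlier results of these data known. Named genes are the 10, Xpa and Ercc8, the most similar gene of each, called neighbours, up to 3 called genes of smallest p per list and 7 closest relatives or partners. Others (Vwf, Cyp7b1, Stmp1, Rn7s1, Rn7s2 and overlapping transcripts) were chosen after their values were seen. Alternatives were the other tables, rounding, filters, scalings, DESeq2 1.42.0, limma 3.58.1 on log2(TPM + 1) and log2(TPM + 0.1), fits of 2 groups and leaving out each mouse. List counts without KO_F_112 and levels per marker sum (also without Reln) were added after seeing the data. Gene coordinates come from GENCODE M39, on the same build.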

Additional observations from a re-analysis of the deposited data

Results flagged for a closer look

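In each genotype, the 6 livers of each of the 10 genes were examined for 1 liver far from the other 5, which made 20 groups, and chance flags about 1 in 20 such groups. In KO livers Kcnk10 was highest in KO_F_123 at 0.107 CPM, followed by 0.0310 CPM, a gap of 0.711 of the whole range, which is past Dixon's 95% critical value, and this level rests on 4 counts. Pcdh12 was highest in KO_M_122 at 5.36 CPM, followed by 4.10 CPM, a gap of 0.751 of the range. The same liver had the highest summed stellate and sinusoidal endothelial markers of the KO livers, whose part in its Pcdh12 level was not tested.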

How the results depend on the processing

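None of the log2 differences of the 10 genes between genotypes changed sign under any alternative, a direction that their choice already fixed, but their size did move. Kcnk10 ranged over both sexes from -6.79 with DESeq2 to -0.85 with limma on log2(TPM + 1), a scale that understates changes of low genes, so no single fold describes it. Counts of genes called depended on the method. In females 871 were lower, with 1513 by DESeq2 and 157 when the 2 groups were fitted alone. In males 541 were lower, with 1003 by DESeq2, 339 by limma on log2(TPM + 1) and 356 on log2(TPM + 0.1). Between Het males and females 157 were called, with 98 at 10 reads or more in every liver, 550 by DESeq2 and 245 by limma on log2(TPM + 0.1). Between KO males and females 11 were called, with 18 without a filter, 315 by DESeq2, 17 by limma on log2(TPM + 0.1), 5 with the 2 groups alone and 0 by edgeR at 10 reads or more in every liver, where 1838 had an unadjusted p under 0.05. For the interaction 9 were called, with 21 without a filter, 14 at 10 reads or more, 17 with RLE size factors, 22 without robust estimation, 162 by DESeq2, 48 by limma on log2(TPM + 1) and 30 on log2(TPM + 0.1). The cause was not tested.

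Leaving out each mouse gave 1402 to 2014 lower genes over both sexes, 319 (without KO_F_108) to 1246 in females, 163 (without KO_M_118) to 831 (without KO_F_108) in males, 87 (without Het_F_115) to 210 for sex in Het livers, 5 to 243 (without KO_F_123) for sex in KO livers and 4 to 82 (without KO_F_123) for the interaction. Among calls in females 53.3% were higher in KO, against 37.7% without composition scaling, and in males 59.5% against 68.2%. The sex difference of Cyp2u1 in Het livers was called in 24 of 24 alternatives and in KO livers in 0 of 24 by any tool run. No paired analysis was possible because the labels give no litter for a mouse and no mouse number occurs in 2 groups. Depth limits Kcnk10 and Mapk4, which rest on few KO counts.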
